A study of Mus musculus with 12 samples.

Results

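The genes described here are the 33 genes of fatty acid uptake, activation, carnitine transport and beta oxidation that a set pathway list names. All 33 were found among the 30389 genes of the deposited table, and the symbols of 2 of them, Fabp3 and Cpt1b, were taken from their Ensembl identifiers because the symbol was empty there. Messenger RNA had been sequenced from muscle of C57BL/6 mice in 12 libraries. In the anomaly group, 3 animals of the genotype VEC-Cre; SB Transposase; onc3, called SBxVEC-Cre+ by the submitters, gave 6 libraries from vascular anomalies in muscle. In the normal group, 3 animals of the genotype SB Transposase; onc3, without Cre, gave 6 libraries of normal muscle. Both groups therefore carried SB Transposase (Sleeping Beauty) together with onc3, the transposon that it moves, and differed in Cre, whose expression the VE-cadherin (VEC) promoter drives, a promoter active in endothelium. The 2 libraries of an animal came from different tissue pieces (separate lesions for anomaly animal 2), and each animal counts as 1 replicate (n = 3 per group). Ages and the muscle sampled are not given in the labels, and transposon insertions were not analysed here.

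Muscle takes long-chain fatty acids from the blood after lipoprotein lipase has freed them from triglyceride, binds them in the cytosol and couples them to coenzyme A. The acyl group is then passed to carnitine by carnitine palmitoyltransferase I, carried across the inner mitochondrial membrane and passed back to coenzyme A. Inside, each turn of beta oxidation removes an acetyl unit by dehydrogenation, hydration, a further oxidation and thiolysis, and the electrons of the first step reach the respiratory chain through the electron transfer flavoprotein. Skeletal and heart muscle use this route heavily and express muscle forms of several of its enzymes.

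The start regions shown first belong to the genes on which the comparison turned. Cpt1a and Acsl5 were the 2 members that were higher in anomalies, while Acadm and Hadhb stand for the enzymes that were lower. Each RefSeq sequence (GRCm38.p6) runs from 250 bases before to 50 bases after the annotated start and reads 5′ to 3′ on the strand of the gene. Capitals mark AGGTCA, the core motif bound by nuclear receptors, on either strand in Cpt1a and Acadm, and GGGCGG, the GC box, on either strand in Hadhb. The Acsl5 window held neither run of letters.
Cpt1a chr19:3323051-3323350 plus strand: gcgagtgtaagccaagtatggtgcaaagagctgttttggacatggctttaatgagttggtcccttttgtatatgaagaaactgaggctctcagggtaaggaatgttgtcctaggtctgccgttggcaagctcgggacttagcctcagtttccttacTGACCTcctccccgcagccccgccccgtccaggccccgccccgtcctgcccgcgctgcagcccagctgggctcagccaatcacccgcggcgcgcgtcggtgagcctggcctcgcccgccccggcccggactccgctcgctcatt
Acsl5 chr19:55253119-55253418 plus strand: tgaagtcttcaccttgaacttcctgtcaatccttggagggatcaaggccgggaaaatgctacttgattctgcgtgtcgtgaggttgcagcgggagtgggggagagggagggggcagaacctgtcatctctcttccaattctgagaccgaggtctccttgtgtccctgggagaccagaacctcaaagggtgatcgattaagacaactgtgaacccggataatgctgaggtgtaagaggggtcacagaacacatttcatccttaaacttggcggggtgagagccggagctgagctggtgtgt
Acadm chr3:153944594-153944893 minus strand: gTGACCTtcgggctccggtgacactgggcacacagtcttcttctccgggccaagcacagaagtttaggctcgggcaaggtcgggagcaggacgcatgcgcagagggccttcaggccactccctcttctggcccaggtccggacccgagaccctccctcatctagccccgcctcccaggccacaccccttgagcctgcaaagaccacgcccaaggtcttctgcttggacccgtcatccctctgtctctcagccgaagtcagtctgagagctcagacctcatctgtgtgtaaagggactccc
Hadhb chr5:30155003-30155302 plus strand: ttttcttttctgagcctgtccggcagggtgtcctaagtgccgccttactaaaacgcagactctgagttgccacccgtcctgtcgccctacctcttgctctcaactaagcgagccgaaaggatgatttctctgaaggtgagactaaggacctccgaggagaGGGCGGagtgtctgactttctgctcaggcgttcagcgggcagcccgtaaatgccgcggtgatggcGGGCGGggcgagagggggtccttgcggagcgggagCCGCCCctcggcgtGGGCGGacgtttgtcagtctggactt
The RefSeq table gave 32 such windows for 27 of the 33 genes. AGGTCA stood in 6 of the 32 windows (18.8%), those of Acadm, Acadvl, Acsl6, Cd36, Cpt1a and Echs1, against 16.3% of 32851 windows of all genes. TCAAGGTCA, the extended core motif of estrogen-related receptors, which contains AGGTCA, stood in the Acsl6 window alone (3.12% of the members' windows, against 0.423% of all windows). GGGCGG stood in 23 windows of 20 members (71.9%), against 35.7% of all windows. Hadha and Hadhb, which encode the alpha and beta subunits of the mitochondrial trifunctional protein, lie head to head, with their GENCODE gene starts 86 bases apart. Their RefSeq windows, which rest on RefSeq starts, share 228 of 300 bases. A match of letters is a description of the window and was not tested as a site.

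Transcripts of this pathway were mostly lower in anomaly tissue, with 2 exceptions that encode other isoforms of enzymes whose muscle form fell. Of the 33 genes, 28 were lower, 2 were higher (Acsl5 and Cpt1a) and 3 (Cd36, Acsl4 and Acot2) did not pass limma's test at an adjusted p of 0.05. Over all 14687 genes tested, 31.0% were lower and 32.4% were higher. In 25 members all 6 anomaly libraries lay below all 6 normal libraries, where 27.6% of all genes did, and in 2 members they lay above, where 28.8% of all genes did. The remaining 6 members (Lpl, Cd36, Acsl3, Acsl4, Eci2 and Acot2) overlapped between the groups. The median log2 fold change of the members, anomaly minus normal in log2(CPM + 1), was -2.36, against 0.09 over all genes tested. CPM are reads scaled to the library size that the authors used, and all folds below are on this log2 scale with the standard error of the fit. The group means differed by more than 4-fold in 22 of the lower members, a count that was not taken over all genes. A loss of cells that make these transcripts and a lower amount of them per cell cannot be told apart in such bulk tissue.

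**Figure D1:**
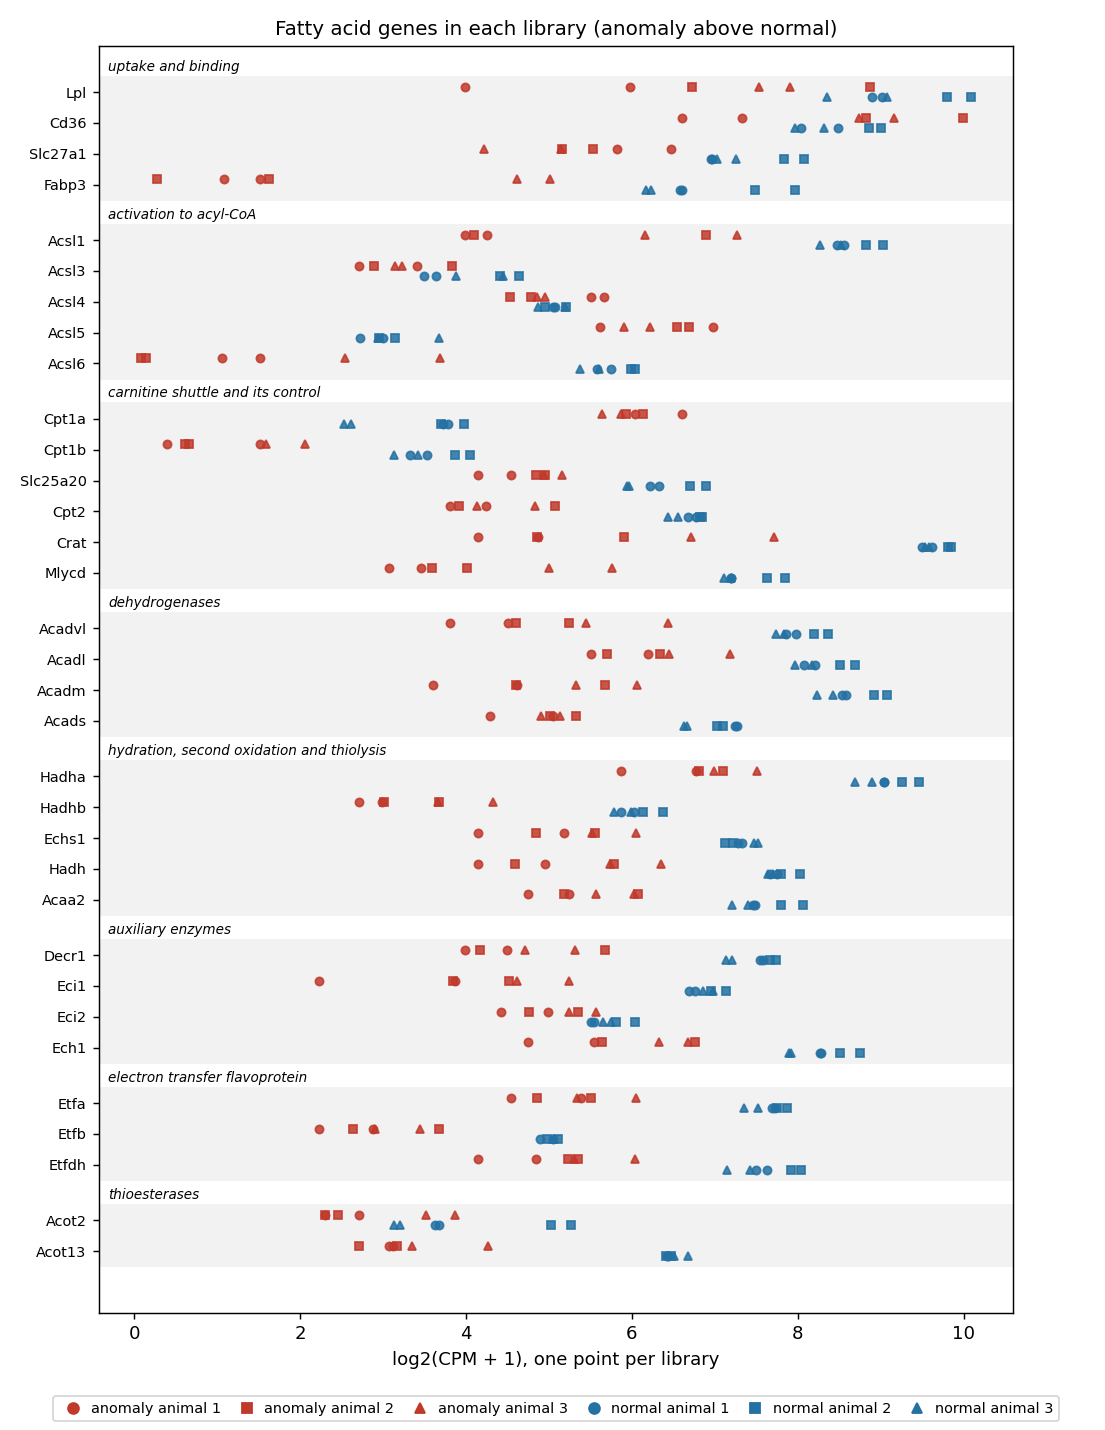
Level of each of the 33 genes in log2(CPM + 1) in each of the 12 libraries, with the anomaly libraries (red) above the normal libraries (blue) in each row, symbols for the animals and grey bands for the roles. Red points lie left of all blue points in 25 rows and right of all of them in the rows of Acsl5 and Cpt1a.

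The libraries differed in depth and in what filled them. Recovered depth was 254404 reads in piece 1 of anomaly animal 1, 9650550 to 18476461 reads in the other anomaly libraries, against 17380211 to 32155879 reads in normal libraries. A read was worth 1.85 CPM in the shallow piece and at most 0.0719 CPM elsewhere, so members at 1 read there (Fabp3, Acsl6 and Cpt1b, each at 1.85 CPM) were not resolved. The 20 muscle fibre markers summed to between 302 and 54994 CPM in anomaly libraries, against 394935 to 470831 CPM in normal libraries, and 18 of the 20 were lower in anomalies. Of 13 endothelial markers tested, 12 were higher, at 2351 to 9140 CPM in sum in anomaly libraries against 414 to 634 CPM in normal libraries, and all 10 macrophage markers were higher, at 438 to 2905 CPM against 31.4 to 181 CPM. The members' share of all reads was 0.156% to 0.502% in anomaly libraries, against 0.405% to 0.630% in normal libraries, with piece 2 of anomaly animal 2 as the only anomaly library within the normal range. Scaled to library totals alone, the median of all genes moved up by 0.88, and 23 members were lower and 3 higher, against 1850 genes lower and 8962 higher over all. With recomputed trimmed means the split over all genes was 6006 lower and 3743 higher, against 4553 and 4765 with the authors' scaling, and the members' counts stayed at 28 and 2. The members' median minus that of all genes was -2.19 with library totals and -2.45 with the authors' scaling. The part of these other cell types in the results below was not tested.

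**Figure D2:**
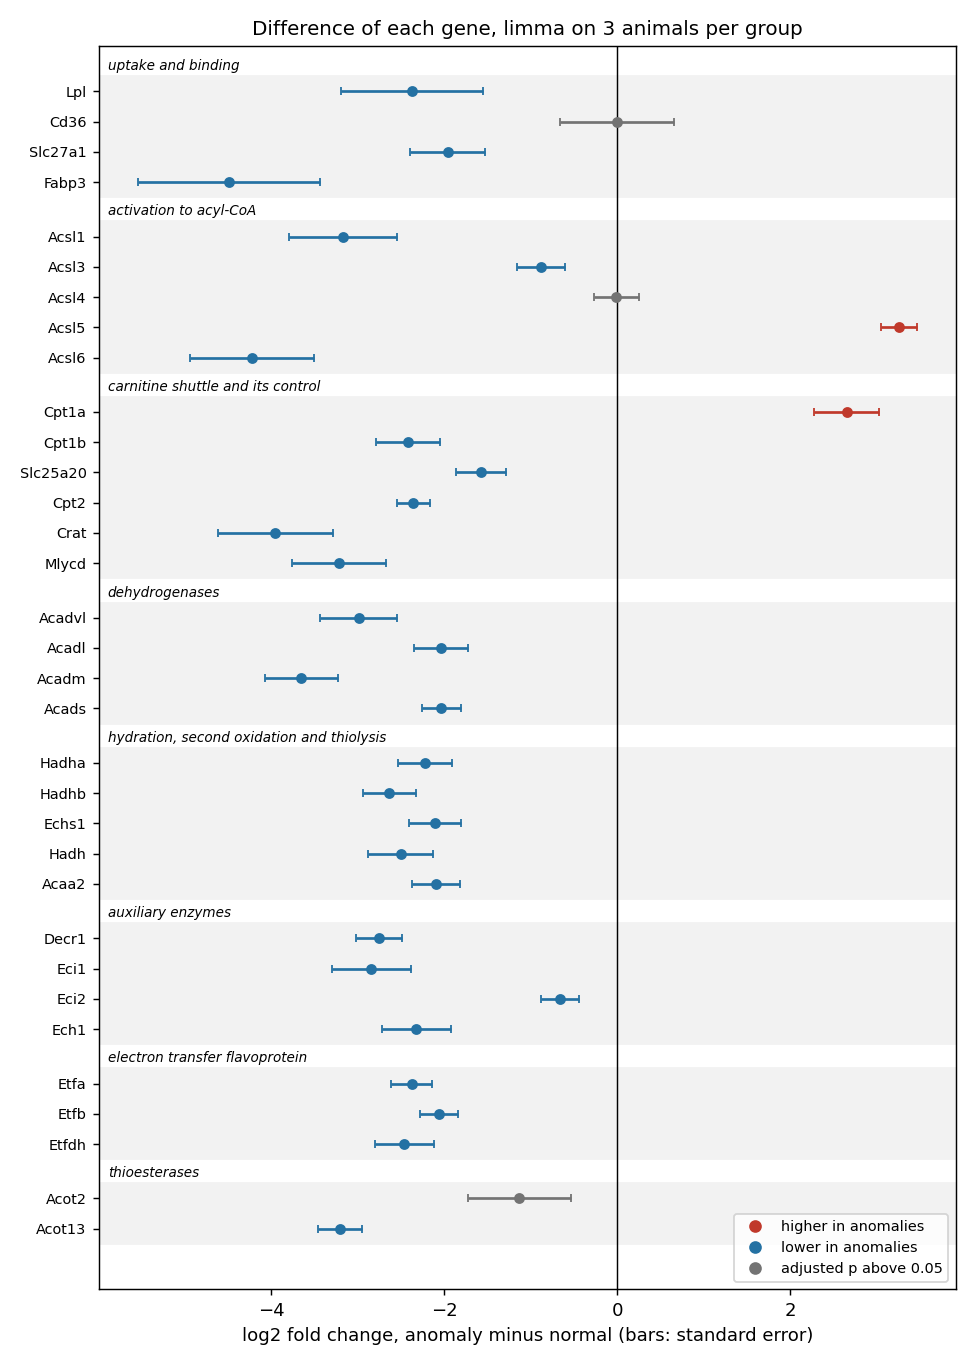
Log2 fold change of each gene (anomaly minus normal, limma on 3 animals per group, bars are standard errors), grouped by role. The 28 blue points lie below 0, Acsl5 and Cpt1a (red) lie at 3.25 and 2.65, and Cd36, Acsl4 and Acot2 (grey) did not pass the test.

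Among the 4 genes of uptake and binding, 3 were lower and Cd36 did not pass the test. Fabp3, the heart and muscle fatty acid binding protein (ENSMUSG00000028773, chromosome 4, 130308595 to 130315463, plus strand, GRCm38), had 1.85 and 1.12 CPM (anomaly animal 1), 0.212 and 2.09 CPM (animal 2) and 23.5 and 31.2 CPM (animal 3), against 94.9 and 95.9 CPM (normal animal 1), 178 and 249 CPM (animal 2) and 71.0 and 73.8 CPM (animal 3). All anomaly libraries lay below all normal ones, and those of anomaly animal 3 stood above the other anomaly libraries. Its log2 fold change was -4.48 ± 1.05 (limma adjusted p = 0.0105), with group means of 9.99 ± 15.0 CPM in anomaly animals and 127 ± 75.8 CPM in normal animals (SD, n = 3 each). That change was -4.96 with a pseudocount of 0.25 and -3.63 with one of 4. In the GENCODE annotation 19.6% of its exon bases also lie in exons of Zcchc17 and Gm10570 on the other strand, and 37.3% of its 50-base words occur in other genes, among them its pseudogene Fabp3-ps1. Lpl, lipoprotein lipase (ENSMUSG00000015568, chromosome 8, 68880491 to 68907448, plus strand), had 14.8 and 61.8 CPM (anomaly animal 1), 105 and 468 CPM (animal 2) and 184 and 239 CPM (animal 3), against 516 and 473 CPM (normal animal 1), 892 and 1088 CPM (animal 2) and 325 and 538 CPM (animal 3). The groups overlapped through piece 2 of anomaly animal 2. Lpl was lower, with a log2 fold change of -2.37 ± 0.82 (limma adjusted p = 0.0414). That call ended with library totals alone (-1.23, adjusted p = 0.195), by piece 2 of every animal alone (-1.77, adjusted p = 0.0904), by letter B pieces alone (-1.47, adjusted p = 0.147), without a filter on low genes (adjusted p = 0.0978) and without normal animal 1, 2 or 3 (adjusted p = 0.0855, 0.121 and 0.0730). Slc27a1, a fatty acid transport protein of the plasma membrane, stood at 17.6 to 87.7 CPM (median 40.0) in anomaly libraries, against 122 to 269 CPM (median 140.4) in normal libraries. It was lower, at a log2 fold change of -1.96 ± 0.44 (limma adjusted p = 0.0086), and with library totals alone at -0.82 (adjusted p = 0.160).

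Cd36, the fatty acid translocase, which endothelium, macrophages, fat cells and muscle fibres all make (ENSMUSG00000002944, chromosome 5, 17781690 to 17888801, minus strand), had 96.4 and 159.8 CPM (anomaly animal 1), 451 and 1019 CPM (animal 2) and 569 and 425 CPM (animal 3), against 357 and 262 CPM (normal animal 1), 463 and 511 CPM (animal 2) and 249.9 and 317 CPM (animal 3). Anomaly animal 1 lay below every normal library, while piece 2 of anomaly animal 2 and piece 1 of anomaly animal 3 lay above every one. The log2 fold change was -0.0041 ± 0.66 (limma adjusted p = 0.996), with a 95% interval of -1.60 to 1.59, an interval that holds both a rise and a fall. Per kb of exon, counted over the merged exons of all annotated transcripts, Cd36 was the most abundant of the 33 genes in anomaly tissue, at 126 ± 85.2 CPM per kb. It ranked 9 in normal muscle, at 100.3 ± 30.8 CPM per kb (SD, n = 3 each). Values and ranks per kb depend on which transcripts are annotated. The library in which Cd36, Lpl and the summed members were highest among anomalies was also the one with fat cell transcripts. The 7 adipocyte markers summed to 548 CPM in piece 2 of anomaly animal 2, to 0.543 to 30.6 CPM in the other anomaly libraries, against 50.2 to 269 CPM in normal libraries. Adiponectin (Adipoq) stood there at 95 CPM and the brown fat genes Ucp1 and Cidea at 67.6 and 27.9 CPM, against at most 0.441 and 1.36 CPM in the other anomaly libraries and at most 0.227 and 3.51 CPM in normal libraries. The list of 4 brown fat markers also holds Elovl3, at 1.98 CPM there and at most 0.0719 CPM in normal libraries. Its other gene, Cpn1, went the other way, at 0 CPM there and 0.288 to 2.01 CPM in normal libraries. With anomaly animal 2 taken by piece 1 alone, a choice made after seeing these values, 26 members were lower and 2 higher. Over all genes, 4511 were then lower and 4652 higher. Acsl3 and Eci2 were not called in that run, Lpl stayed lower and Cd36 stood at -0.20 (limma adjusted p = 0.773).

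**Figure D3:**
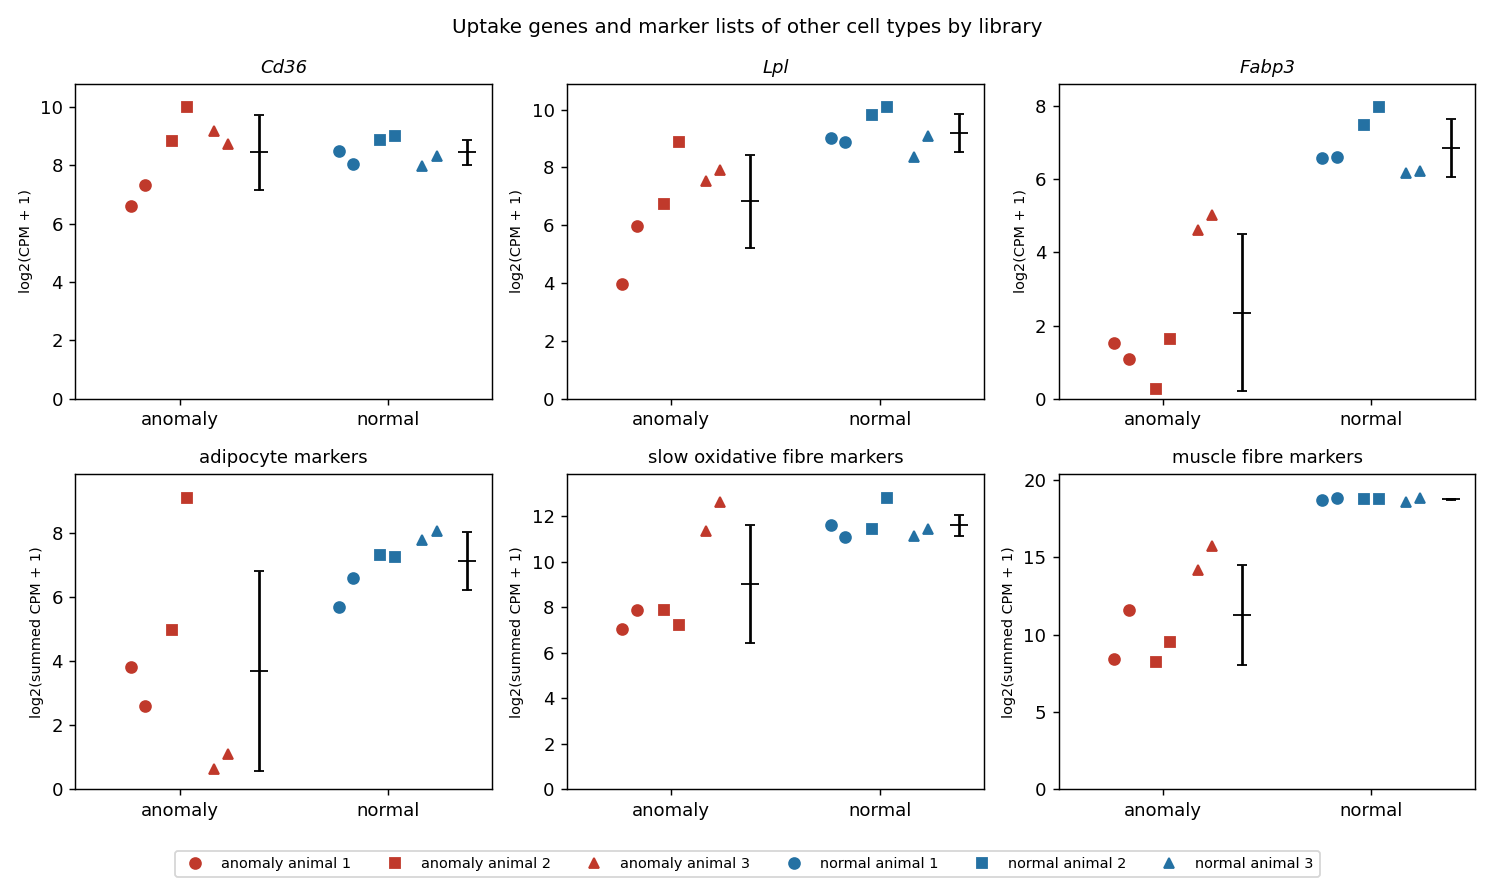
Upper panels show log2(CPM + 1) of Cd36, Lpl and Fabp3 and lower panels the log2 of the summed CPM + 1 of the adipocyte, slow oxidative fibre and muscle fibre markers, with anomaly libraries (red) left of normal libraries (blue), symbols for the animals and black bars for the mean and SD over 3 animals. Piece 2 of anomaly animal 2 is the highest anomaly point for Cd36, Lpl and the adipocyte markers, and anomaly animal 3 is the highest for Fabp3 and both fibre lists.

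The 5 long-chain acyl-CoA synthetases, which couple fatty acids to coenzyme A, moved apart. Acsl1, the main form of muscle and fat (ENSMUSG00000018796, chromosome 8, 46471037 to 46536051, plus strand), had 14.8 and 18.1 CPM (anomaly animal 1), 16.1 and 118 CPM (animal 2) and 70.6 and 153 CPM (animal 3), against 376 and 355 CPM (normal animal 1), 451 and 520.2 CPM (animal 2) and 306 and 366 CPM (animal 3). All anomaly libraries lay below all normal ones, with the first 3 anomaly libraries far below the rest. Acsl1 was lower, at a log2 fold change of -3.17 ± 0.63 (limma adjusted p = 0.00551). Acsl6, known from brain and muscle, stood at 0.0581 to 11.9 CPM (median 1.47) in anomaly libraries, against 40.6 to 64.8 CPM (median 50.1) in normal libraries. Acsl6 was lower, at a log2 fold change of -4.22 ± 0.72 (limma adjusted p = 0.00316). The size of its fall was -4.99 with a pseudocount of 0.25, -3.12 with one of 4 and -5.45 in voom. The libraries did not overlap, and both lesions of anomaly animal 2 stood at or under 0.106 CPM, which is at most 2 reads. Acsl5, a form of the mitochondrial outer membrane and endoplasmic reticulum that is known from intestine and liver (ENSMUSG00000024981, chromosome 19, 55251938 to 55297720, plus strand), had 48.2 and 125 CPM (anomaly animal 1), 92.5 and 102 CPM (animal 2) and 73.5 and 58.9 CPM (animal 3), against 7.02 and 5.62 CPM (normal animal 1), 7.87 and 6.76 CPM (animal 2) and 11.7 and 6.69 CPM (animal 3). Every anomaly library lay above every normal one. Acsl5 was higher by 3.25 ± 0.21 (limma adjusted p = 1.60e-04), a 10.9-fold ratio of means, and its log2 fold change lay between 2.84 and 4.34 under every alternative run. Acsl3, a form found on lipid droplets, stood at 5.56 to 13.2 CPM (median 8.14) in anomaly libraries, against 10.2 to 23.9 CPM (median 17.0) in normal libraries, with some overlap. It was lower, at a log2 fold change of -0.88 ± 0.28 (limma adjusted p = 0.0303), a call that ended without any 1 anomaly animal (adjusted p = 0.0523 to 0.0648), without normal animal 2 or 3 (adjusted p = 0.103 and 0.0957), without a filter on low genes (adjusted p = 0.0594), by piece 1 alone (adjusted p = 0.116) and in voom (adjusted p = 0.0557). By letter A or letter B pieces alone it also ended (adjusted p = 0.0962 and 0.0572), and it turned to 0.18 (adjusted p = 0.568) with library totals alone. Acsl4, which prefers arachidonic acid, had 44.5 and 49.8 CPM (anomaly animal 1), 26.6 and 22.0 CPM (animal 2) and 29.8 and 28.0 CPM (animal 3), against 32.7 and 32.0 CPM (normal animal 1), 36.0 and 29.9 CPM (animal 2) and 28.2 and 35.7 CPM (animal 3). Anomaly animal 1 stood above every normal library, while anomaly animal 2 stood below them. Its log2 fold change was -0.0084 ± 0.25 (limma adjusted p = 0.978, 95% interval -0.62 to 0.61), and with library totals alone it was called higher at 1.12 (adjusted p = 0.0124).

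Set against one another per kb of exon, the synthetases changed places. Acsl5 made up 53.9% ± 10.3 of the 5 synthetases in anomaly animals and 2.95% ± 0.86 in normal animals (SD, n = 3 each), with animal values of 59.4%, 60.3% and 42.1% against 2.62%, 2.30% and 3.92%. Acsl1 made up 19.2% ± 13.9 in anomaly animals and 69.2% ± 2.38 in normal animals. Within anomalies the Acsl1 share differed from animal to animal, at 5.24%, 19.3% and 33.0% in animals 1, 2 and 3. The log2 ratio of Acsl5 to Acsl1, taken on CPM + 1 and not per kb, averaged 0.88 ± 1.43 in anomaly animals and -5.54 ± 0.40 in normal animals (SD, n = 3 each), a difference of 6.42. The ratios of Acsl4 and Acsl3 to Acsl1 were higher by 3.16 and 2.29. Each of these ratios separated the 3 anomaly from the 3 normal animals, and a two-sided exact permutation test gave p = 0.1, the smallest that 3 against 3 allows (0.125 after Benjamini-Hochberg adjustment over 5 ratios). The ratio of Acsl6 to Acsl1 averaged -3.94 ± 1.31 in anomaly animals and -2.89 ± 0.03 in normal animals, and overlapped (exact permutation p = 0.4). Its difference of -1.05 moved to -1.79 with a pseudocount of 0.25 and to -0.080 with one of 4, and without anomaly animal 2 to -0.33 and without anomaly animal 1 to -1.60.

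**Figure D4:**
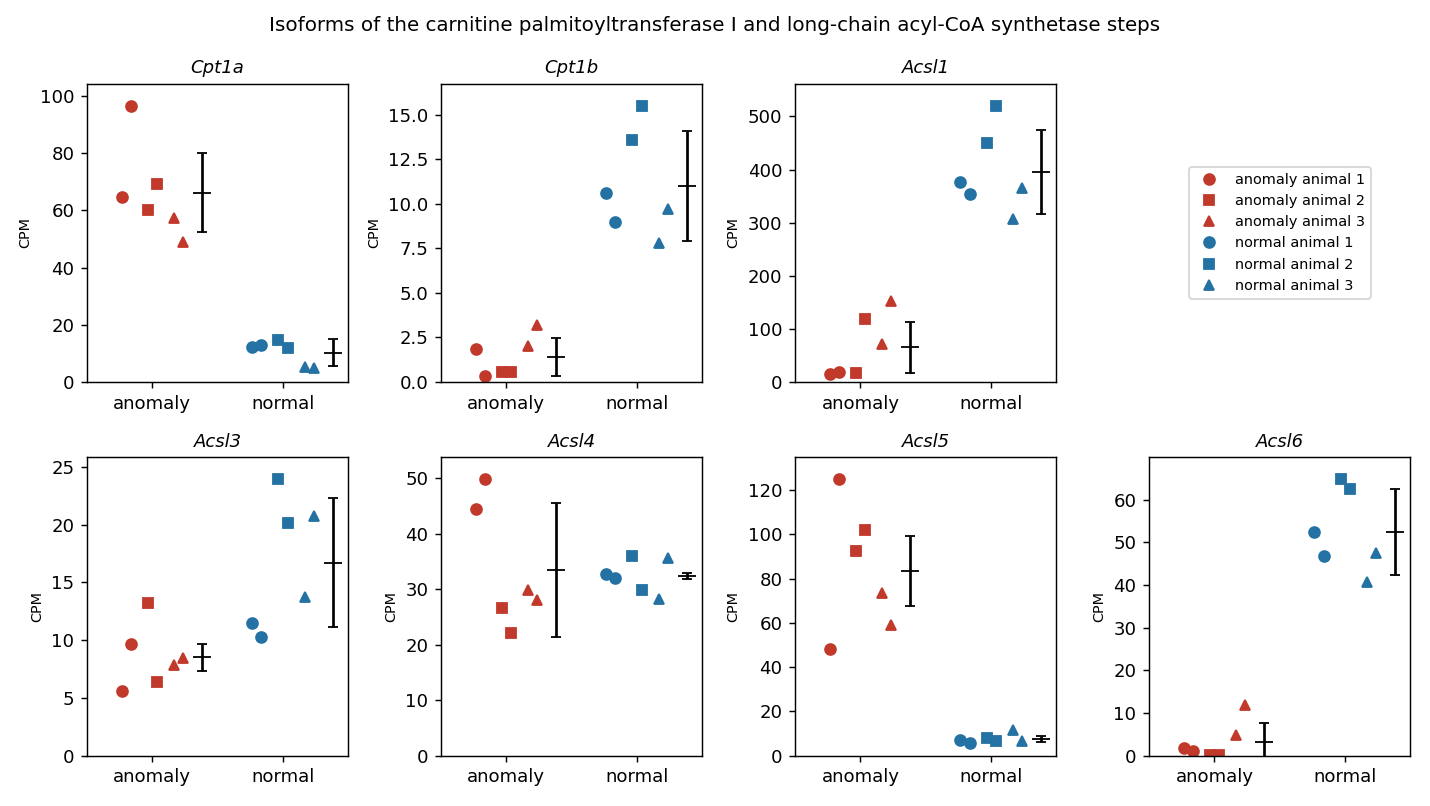
CPM of Cpt1a and Cpt1b and of the 5 long-chain acyl-CoA synthetases in each library, with anomaly libraries (red) left of normal libraries (blue), symbols for the animals and black bars for the mean and SD over 3 animals. Acsl5 and Cpt1a are higher in all 6 anomaly libraries, while Acsl1, Acsl6 and Cpt1b are lower in all 6.

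The carnitine shuttle showed the same kind of exchange at its first enzyme. Cpt1a, the liver form of carnitine palmitoyltransferase I, which most tissues other than muscle use (ENSMUSG00000024900, chromosome 19, 3322334 to 3385733, plus strand), had 64.9 and 96.6 CPM (anomaly animal 1), 60.1 and 69.4 CPM (animal 2) and 57.3 and 49.0 CPM (animal 3), against 12.2 and 12.7 CPM (normal animal 1), 14.7 and 12 CPM (animal 2) and 5.11 and 4.76 CPM (animal 3). Every anomaly library lay above every normal one, and normal animal 3 stood lowest. Cpt1a was higher by 2.65 ± 0.37 (limma adjusted p = 0.00159), a 6.45-fold ratio of means, with values from 2.24 to 3.75 under the alternatives run. Cpt1b, the muscle form (ENSMUSG00000078937, chromosome 15, 89416405 to 89425863, minus strand), stood at 0.315 to 3.17 CPM (median 1.22) in anomaly libraries, against 7.77 to 15.5 CPM (median 10.1) in normal libraries. It was lower, at a log2 fold change of -2.41 ± 0.37 (limma adjusted p = 0.00209), with no overlap. The libraries of anomaly animals 1 and 2 held only 1 to 10 reads of Cpt1b, so the size of its fall depends on the pseudocount. It was -3.03 with a pseudocount of 0.25, -1.48 with one of 4 and -3.49 in voom. The ratio of Cpt1a to Cpt1b below rests on the same few reads. In GENCODE 81.4% of the exon bases of Cpt1b also lie in exons of the overlapping protein-coding gene Gm44502 on the same strand. How reads of shared exons were counted is not given in the sources used here. Per kb of exon, Cpt1a made up 95.1% ± 4.36 of the pair in anomaly animals and 28.3% ± 8.05 in normal animals (SD, n = 3 each). These shares divide Cpt1b by its whole exon length of 3.37 kb, shared bases included. They therefore depend on how reads of the shared exons were counted. The log2 ratio of Cpt1a to Cpt1b, taken on CPM + 1 and not per kb, averaged 4.90 ± 0.84 in anomaly animals and -0.17 ± 0.52 in normal animals, a difference of 5.07 (two-sided exact permutation p = 0.1, the smallest possible, 0.125 after adjustment).

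The other members of the shuttle were lower in all 6 anomaly libraries. Crat, carnitine acetyltransferase, which buffers acetyl-CoA in muscle mitochondria, had 16.7 and 28.2 CPM (anomaly animal 1), 27.9 and 58.7 CPM (animal 2) and 104 and 208 CPM (animal 3), against 722 and 785 CPM (normal animal 1), 893 and 921 CPM (animal 2) and 741 and 762 CPM (animal 3). Anomaly animal 3 stood highest among anomalies and still below every normal library. Crat was lower, at a log2 fold change of -3.95 ± 0.66 (limma adjusted p = 0.00291), a 10.9-fold ratio of means, normal over anomaly. Mlycd, malonyl-CoA decarboxylase, which removes the inhibitor of carnitine palmitoyltransferase I, stood at 7.41 to 53.4 CPM (median 13.1) in anomaly libraries, against 138 to 229 CPM (median 146) in normal libraries. It was lower, at a log2 fold change of -3.21 ± 0.54 (limma adjusted p = 0.00298). Cpt2, the inner membrane enzyme that returns acyl groups to coenzyme A and has no muscle form of its own, stood at 13.0 to 32.7 CPM (median 17.2) in anomaly libraries, against 85.2 to 114 CPM (median 105) in normal libraries. Cpt2 was lower, at a log2 fold change of -2.36 ± 0.19 (limma adjusted p = 2.99e-04). Slc25a20, the carnitine-acylcarnitine carrier, was the least changed of the lower shuttle members at -1.58 ± 0.29 (limma adjusted p = 0.00409), and with library totals alone it stood at -0.45 (adjusted p = 0.164).

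All 4 acyl-CoA dehydrogenases, which make the first double bond, were lower without overlap between the groups. Acadm, the medium-chain enzyme (ENSMUSG00000062908, chromosome 3, 153922357 to 153944632, minus strand), had 11.1 and 23.6 CPM (anomaly animal 1), 23.2 and 49.9 CPM (animal 2) and 39.1 and 66.1 CPM (animal 3), against 383 and 368 CPM (normal animal 1), 484 and 538 CPM (animal 2) and 300.4 and 342 CPM (animal 3). The shallow piece stood lowest and piece 2 of anomaly animal 3 highest among anomalies. Acadm was lower, at a log2 fold change of -3.65 ± 0.42 (limma adjusted p = 8.30e-04), at means of 35.5 ± 17.6 CPM in anomaly animals and 403 ± 97.8 CPM in normal animals (SD, n = 3 each), the largest fall of the 4. Acadvl, the very long-chain enzyme of the inner membrane, stood at 13.0 to 85.6 CPM (median 30.0) in anomaly libraries, against 213 to 327 CPM (median 241) in normal libraries. Acadvl was lower, at a log2 fold change of -2.99 ± 0.45 (limma adjusted p = 0.00196). In GENCODE 42.9% of its exon bases lie in exons of Dvl2 on the other strand, and the kit did not keep strand, so reads of the shared bases cannot be assigned to either gene. Acadl, the long-chain enzyme, was lower, at a log2 fold change of -2.04 ± 0.31, at 39.7 ± 15.5 CPM per kb in anomaly animals and 156 ± 32.8 CPM per kb in normal animals (SD, n = 3 each). Acads, the short-chain enzyme, stood at 18.5 to 39.0 CPM (median 31.8) in anomaly libraries, against 97.8 to 153 CPM (median 133) in normal libraries. Acads was lower, at a log2 fold change of -2.03 ± 0.23. Adjusted p over the 4 dehydrogenases ran from 7.14e-04 to 0.0021 (limma).

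The 5 genes of hydration, the second oxidation and thiolysis moved within a narrow band, from -2.63 to -2.10, with adjusted p from 8.27e-04 to 0.00196 (limma). Hadha, the alpha subunit of the trifunctional protein, which joins long-chain hydratase and dehydrogenase, had 57.4 and 108 CPM (anomaly animal 1), 111 and 136 CPM (animal 2) and 126 and 181 CPM (animal 3), against 525 and 524 CPM (normal animal 1), 612 and 703 CPM (animal 2) and 410.1 and 475 CPM (animal 3). Hadhb, the thiolase subunit that shares its start region, stood at 5.56 to 19.1 CPM (median 9.37) in anomaly libraries, against 54.0 to 82.2 CPM (median 63.4) in normal libraries. The alpha and beta subunits had log2 fold changes of -2.22 ± 0.31 and -2.63 ± 0.31, and neither had libraries that overlapped between groups. Per kb, Hadha stood at 13.7 CPM in anomaly animals and 62.0 CPM in normal animals, and Hadhb at 1.57 CPM in anomaly animals and 9.85 CPM in normal animals. In the annotation 19.7% of the 50-base words of Hadhb also occur in other genes, Gm13910 and Gm9108 first among them. Echs1, the short-chain enoyl-CoA hydratase, stood at 16.7 to 65.2 CPM (median 39.9) in anomaly libraries, against 139 to 182 CPM (median 157) in normal libraries. Echs1 was lower, at a log2 fold change of -2.11 ± 0.30. Hadh, the short-chain 3-hydroxyacyl-CoA dehydrogenase, stood at 16.7 to 80.9 CPM (median 41.1) in anomaly libraries, against 199 to 260.2 CPM (median 210.2) in normal libraries. Hadh was lower, at a log2 fold change of -2.50 ± 0.38. Acaa2, the thiolase of medium and shorter chains, stood at 25.9 to 66.3 CPM (median 41.6) in anomaly libraries, against 147 to 267 CPM (median 177) in normal libraries. Acaa2 was lower, at a log2 fold change of -2.10 ± 0.28.

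The auxiliary enzymes, which handle unsaturated fatty acids, were also lower, with one much less changed than the rest. Decr1, the dienoyl-CoA reductase, stood at 14.8 to 50.1 CPM (median 23.4) in anomaly libraries, against 139.8 to 212 CPM (median 188) in normal libraries. Decr1 was lower, at a log2 fold change of -2.75 ± 0.27 (limma adjusted p = 4.62e-04). Eci1 and Ech1, the mitochondrial isomerases that move double bonds, were lower, at a log2 fold change of -2.84 ± 0.46 and -2.32 ± 0.40 (limma adjusted p = 0.00254 and 0.00314), and no library of either overlapped. Eci2, an isomerase found in both mitochondria and peroxisomes, had 20.4 and 30.8 CPM (anomaly animal 1), 40.0 and 26.0 CPM (animal 2) and 36.8 and 46.5 CPM (animal 3), against 45.8 and 44.5 CPM (normal animal 1), 54.8 and 64.7 CPM (animal 2) and 49.2 and 52.6 CPM (animal 3). The groups overlapped at piece 2 of anomaly animal 3. Eci2 was lower, at a log2 fold change of -0.66 ± 0.22 (limma adjusted p = 0.0389), a call that ended without anomaly animal 1 or 2 (adjusted p = 0.0681 and 0.0899), without any 1 normal animal (adjusted p = 0.0655 to 0.129) and by either piece alone. It also ended without a filter on low genes (adjusted p = 0.0719), and turned to 0.47 (adjusted p = 0.0603) with library totals alone.

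The 3 genes of the electron transfer flavoprotein and its dehydrogenase were lower together. Etfa, the alpha subunit, stood at 22.2 to 65.3 CPM (median 40.2) in anomaly libraries, against 162 to 234 CPM (median 208) in normal libraries. Etfa was lower, at a log2 fold change of -2.37 ± 0.24. Etfb, the beta subunit, stood at 3.71 to 11.8 CPM (median 6.42) in anomaly libraries, against 28.8 to 33.5 CPM (median 32.1) in normal libraries. Etfb was lower, at a log2 fold change of -2.06 ± 0.22, although 58.2% of its exon bases lie in exons of Gm45233 or Mir7051 on the same strand. Etfdh, the oxidoreductase that hands the electrons to ubiquinone, stood at 16.7 to 64.7 CPM (median 37.4) in anomaly libraries, against 140.3 to 262 CPM (median 188) in normal libraries. Etfdh was lower, at a log2 fold change of -2.46 ± 0.35. Adjusted p ran from 5.11e-04 to 0.00156 (limma), and in none of the 3 did the libraries overlap. Of the 2 thioesterases, which release fatty acids from coenzyme A, Acot13 was lower, at a log2 fold change of -3.20 ± 0.25 (limma adjusted p = 2.64e-04), at 5.56 to 18.3 CPM (median 7.85) in anomaly libraries, against 83.8 to 101 CPM (median 86.6) in normal libraries, a 9.50-fold ratio of means, normal over anomaly. Acot2, the mitochondrial long-chain thioesterase, had 5.56 and 3.91 CPM (anomaly animal 1), 3.92 and 4.48 CPM (animal 2) and 10.4 and 13.6 CPM (animal 3), against 11.4 and 11.8 CPM (normal animal 1), 31.6 and 37.4 CPM (animal 2) and 7.77 and 8.22 CPM (animal 3). Normal animal 2 stood far above the other normal animals, and the groups overlapped. The log2 fold change was -1.13 ± 0.60 (limma adjusted p = 0.139, 95% interval -2.58 to 0.31), and 27.7% of its 50-base words occur in other genes, Acot1 first among them. Fitted on all 12 libraries with the animal as a random block, it was called lower (adjusted p = 0.0327, and 0.0411 with the piece number or 0.0410 with the piece letter as a replicate block).

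With the pieces of each animal averaged, the members stood lowest in anomaly animal 1 and highest in anomaly animal 3. The median over the members of log2(CPM + 1) minus the normal mean was -2.69, -2.19 and -1.85 in anomaly animals 1, 2 and 3. By library it was -3.18 and -2.45 (animal 1), -2.57 and -1.80 (animal 2) and -2.08 and -1.56 (animal 3), against -0.33 to 0.35 in normal libraries. Of the 28 lower members, 23 had their lowest animal mean in anomaly animal 1 and 23 their highest in anomaly animal 3. The same counts were not taken over all genes. The means of animal 1 include the shallow piece (-3.18), and its piece 2 (-2.45) stood above piece 1 of animal 2 (-2.57). Those of animal 2 include the piece with fat cell transcripts (-1.80). Muscle fibre markers were also highest in anomaly animal 3 (-4.25 and -2.90). Their median difference was lowest in piece 1 of anomaly animal 2 (-10.43) and in the shallow piece (-10.05). By animal it was -8.57, -9.60 and -3.60, where the value of animal 1 includes the shallow piece. Nuclear genes of oxidative phosphorylation stood at -3.32, -3.08 and -1.89, and those of the tricarboxylic acid cycle and pyruvate dehydrogenase at -3.36, -3.21 and -2.08. The part of fibre content in these orders was not tested. Slow oxidative fibre markers summed to 2633 and 6388 CPM in anomaly animal 3, and to 133 to 238 CPM in the other anomaly libraries. Normal libraries summed to 2202 to 7242 CPM. The top of that range was piece 2 of normal animal 2, with at most 3152 CPM in the other normal libraries. Mb alone held 2079 and 5501 CPM of the sums in anomaly animal 3, and 1943 to 3687 CPM of those in normal libraries. The median difference of the list was 1.19 and 1.41 in anomaly animal 3, above every normal library but piece 2 of normal animal 2 (3.16). A limma F test over the 6 anomaly libraries, which sets animals against the spread between their pieces, called 6 of the 33 members different among the animals (Lpl, Cd36, Fabp3, Acsl6, Crat and Mlycd), against 16.3% of the 13815 genes tested. The members' count is thus near the share over all genes. Fabp3, Acsl6, Crat and Mlycd were highest in anomaly animal 3. The count rested on single libraries, being 1 (Fabp3, adjusted p = 0.0484) without piece 1 of anomaly animal 1, where 4.82% of all genes were called, and 13 without piece 2 of anomaly animal 2, where 25.3% were.

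Many of these genes also differed among the normal animals. The same F test over normal libraries called 21 of the 33 members, against 16.3% of the 12601 genes tested, and 20 of the 21 were highest in normal animal 2. The label of that animal begins with the letter M, where those of the other normal animals begin with F, and what the letters stand for is not given. Acot2 had an adjusted p of 4.36e-04 and Fabp3 one of 0.00242 in this test. Fabp3 stood at 178 and 249 CPM in normal animal 2 and at 71.0 to 95.9 CPM in the other normal libraries. Slow oxidative fibre markers had a median difference of 0.47 and 3.16 in the pieces of normal animal 2. In the other normal libraries it was -1.02 to -0.014. Their summed CPM stood apart in piece 2 of that animal alone (7242 CPM). Its piece 1 summed to 2788 CPM, against 2202 to 3152 CPM in the libraries of normal animals 1 and 3. The part of fibre type, or of what that letter marks, in these differences was not tested.

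Further genes of fatty acid and mitochondrial metabolism were read from lists written with earlier results of these data known. Over all genes tested, 31.0% were lower and 32.4% higher, the background to each list count below. Of 12 other mitochondrial beta oxidation and branched-chain enzymes tested, 11 were lower, 0 higher and 1 (Decr2) not called, at a median of -2.29. Mut, the methylmalonyl-CoA mutase, was lower, at a log2 fold change of -2.41 ± 0.20, Pcca, a propionyl-CoA carboxylase subunit, at -2.89 ± 0.25 and Mcee, methylmalonyl-CoA epimerase, at -2.41 ± 0.21. Of 12 genes of peroxisomal beta oxidation tested, 10 were lower, 0 higher and 2 not called, at a median of -1.64. Ehhadh, the peroxisomal bifunctional enzyme, was lower, at a log2 fold change of -2.06 ± 0.20 and Pecr, a peroxisomal enoyl-CoA reductase, at -2.64 ± 0.27. All 21 nuclear genes of oxidative phosphorylation and all 17 of the tricarboxylic acid cycle and pyruvate dehydrogenase were lower, at medians of -2.75 and -2.85. Among them Cox5a was lower, at a log2 fold change of -2.96 ± 0.34, Sdhb at -3.07 ± 0.37 and Cycs at -1.92 ± 0.20, and in the cycle Suclg2 at -1.92 ± 0.16, Dlat at -2.85 ± 0.27 and Fh1 at -2.82 ± 0.28. Of 19 genes of mitochondrial import, folding and genome upkeep, 15 were lower and 4 not called, at a smaller median of -1.17. Vdac3 was lower, at a log2 fold change of -2.75 ± 0.18, Phb at -1.81 ± 0.22 and Polrmt, the mitochondrial RNA polymerase, at -1.60 ± 0.17. Adjusted p of the genes named here as lower ran from 1.84e-04 to 9.84e-04 (limma).

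**Figure D5:**
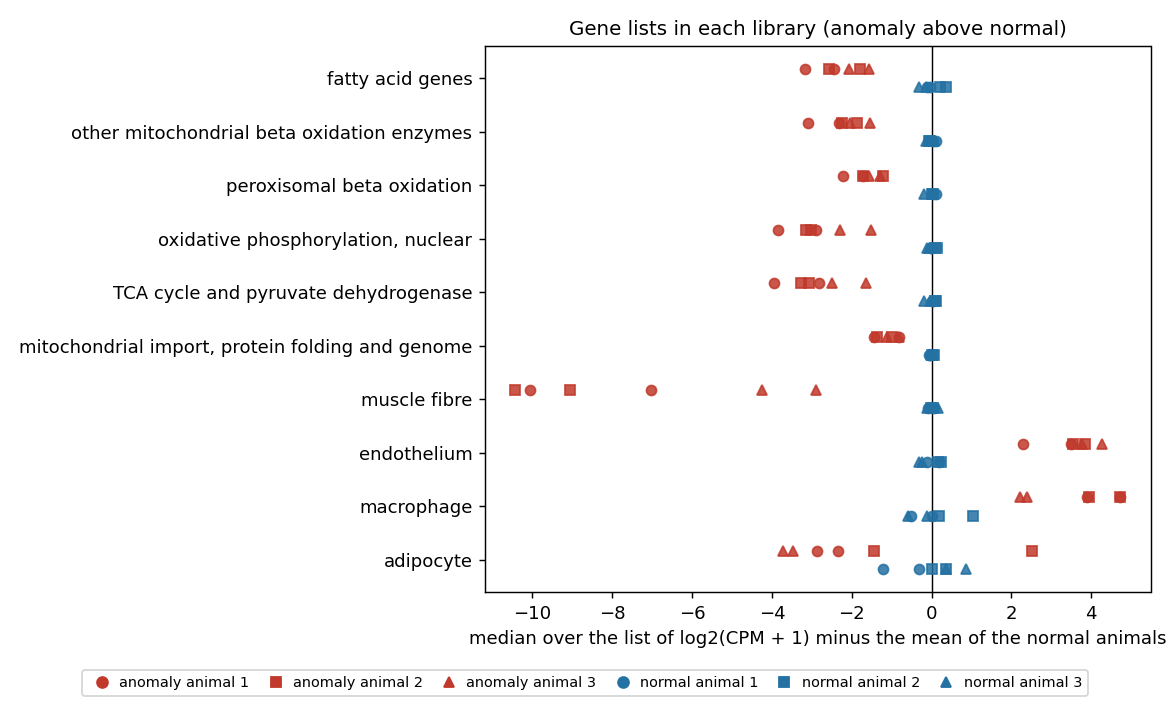
Median over each gene list of log2(CPM + 1) minus the mean of the normal animals, 1 point per library, with anomaly libraries (red) above normal libraries (blue) and symbols for the animals. The fatty acid genes stand at -3.18 to -1.56 in anomaly libraries, near the lists of oxidative phosphorylation and the tricarboxylic acid cycle and above that of muscle fibre, and the adipocyte list is above 0 in anomaly tissue in piece 2 of anomaly animal 2 alone.

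Lists around the pathway held genes called in both directions, where 32.4% of all genes tested were higher and 31.0% lower. In carnitine supply, 2 of 3 genes tested were higher, Aldh9a1, an enzyme of carnitine synthesis, by 1.89 ± 0.48 (limma adjusted p = 0.0137) and Slc22a4, a cation and carnitine transporter, by 0.76 ± 0.21 (adjusted p = 0.02), while Slc22a5, the main carnitine transporter, stood at 0.024 ± 0.30 and was not called. Of 12 other genes of fatty acid transport and binding tested, 4 were higher, 3 lower and 5 not called, near the shares over all genes. Fabp5, a binding protein of skin, macrophages and endothelium, was higher by 3.50 ± 0.35 (limma adjusted p = 5.12e-04), at means of 78.4 ± 40.9 CPM in anomaly animals and 5.40 ± 0.974 CPM in normal animals (SD, n = 3 each), and Fabp7 by 1.20 ± 0.24. Lmf1, a factor for lipase maturation, was lower, at a log2 fold change of -0.74 ± 0.16, Dbi, the acyl-CoA binding protein, at -1.26 ± 0.31 and Vldlr, a lipoprotein receptor, at -3.30 ± 0.94. Gpihbp1 and Angptl4 were named after their values were seen. Gpihbp1, which holds lipoprotein lipase on capillary endothelium, was higher by 2.74 ± 0.73 (limma adjusted p = 0.0173). Angptl4, an inhibitor of that lipase, was higher by 3.70 ± 1.16 (limma adjusted p = 0.0303). Angptl4 had 385 and 255 CPM (anomaly animal 1), 92.5 and 88.2 CPM (animal 2) and 10.7 and 10.4 CPM (animal 3). Normal libraries held 1.55 to 7.91 CPM of it. Lpl itself was lower, a call that ended in several alternative runs. Fabp4, of fat cells, macrophages and capillaries, averaged 1012 ± 994 CPM in anomaly animals and 215 ± 58.7 CPM in normal animals (SD, n = 3 each) and was not called at 1.59 ± 0.75 (limma adjusted p = 0.104). Of 11 further synthetases and thioesterases, 3 were higher, 4 lower and 4 not called, again near the shares over all genes. Acot7 was higher by 1.83 ± 0.18, Acsf2 by 2.82 ± 0.33 and Acot9 by 0.53 ± 0.17, while Acss1, the mitochondrial acetyl-CoA synthetase, was lower, at a log2 fold change of -2.46 ± 0.32.

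Of 5 ketone body genes, 3 were lower and 2 not called, with Acat1 at -2.82 ± 0.32, Oxct1, which activates acetoacetate, at -3.15 ± 0.41 and Bdh1 at -3.06 ± 0.60. Of 12 lipid droplet and lipolysis genes, 6 were lower, 3 higher and 3 not called. Abhd5, the activator of adipose triglyceride lipase, was lower, at a log2 fold change of -1.21 ± 0.17, G0s2, its inhibitor, at -2.54 ± 0.43 and Plin5, the droplet protein of oxidative tissue, at -3.20 ± 0.58. The droplet genes that went the other way were Plin2 at 2.43 ± 0.84, Hilpda at 2.51 ± 0.91 and Mgll at 1.46 ± 0.49 (limma adjusted p = 0.0425, 0.0484 and 0.0393). Plin2 stood at 264 to 467 CPM in anomaly animals 1 and 2 and at 47.6 and 37.9 CPM in animal 3. Its normal libraries held 27.8 to 36.2 CPM. Hilpda had 159 and 96.7 CPM (anomaly animal 1), 22.2 and 9.01 CPM (animal 2) and 10.3 and 8.04 CPM (animal 3). Its normal libraries held 3.19 to 4.42 CPM. Of 12 genes of fatty acid synthesis and desaturation, 6 were higher, 1 lower and 5 not called, at a median of 1.26. Elovl1, an elongase of very long chains, was higher by 3.02 ± 0.18 (adjusted p = 1.43e-04) and Scd2, a desaturase, by 2.79 ± 0.24, whereas Me1, malic enzyme, was lower, at a log2 fold change of -4.03 ± 0.28, and Fasn stood at 0.32 ± 0.95 and was not called. Of 8 genes of malonyl-CoA and AMPK control, 5 were lower, 1 higher and 2 not called. The lower ones included the muscle subunits of AMPK, Prkag3 at -7.02 ± 0.51, Prkaa2 at -6.29 ± 0.93 and Prkab2 at -5.11 ± 0.27, and Acacb, named after its value was seen, the mitochondrial acetyl-CoA carboxylase, at -5.12 ± 0.86. Prkab1 was higher by 1.43 ± 0.25 (limma adjusted p = 0.00355).

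Of 11 nuclear regulators of fatty acid oxidation, 9 were lower, 1 higher and 1 (Ppard, at -0.23 ± 0.20) not called, at a median of -2.47. Nr4a1 was lower, at a log2 fold change of -3.66 ± 0.27, Rxrg at -5.49 ± 0.47 and Ppara, the receptor that drives oxidation genes in liver and muscle, at -3.19 ± 0.30 (limma adjusted p = 2.22e-04, 3.24e-04 and 4.23e-04). Pparg, the receptor of fat cells that macrophages and endothelium also express, was higher by 2.42 ± 0.64 (adjusted p = 0.0166). It had 7.41 and 15.5 CPM (anomaly animal 1), 58.1 and 87.3 CPM (animal 2) and 23.3 and 14.8 CPM (animal 3), against 3.77 and 4.0 CPM (normal animal 1), 4.69 and 3.67 CPM (animal 2) and 3.16 and 3.57 CPM (animal 3), and was highest in the library with fat cell transcripts. None of the 7 adipocyte markers was called by limma between the groups, with log2 fold changes from -3.72 to -0.87, although 2 had an unadjusted p under 0.05, and voom called 0. Each of the 7 stood at 1.85 CPM, the worth of 1 read, in the shallow piece of anomaly animal 1. Of the 9 slow oxidative fibre markers, 1 (Myl3) was lower and 8 were not called.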

How the data were processed

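RNA from 12 muscle tissue pieces of 6 mice had been made into unstranded poly-A libraries, per the labels' protocols. The deposited values are log2 CPM per gene, made by the authors with library scaling and a floor of -6.707. The submitters' processing notes name STAR, limma, GRCm38 and mm10, while versions, the gene annotation and the counting rule are not given in the sources used here. Values were returned to CPM, and the worth of 1 read in each library was found from the lowest steps, with 100% of values whole within 0.01 read. Both libraries of an animal gave 1 mean of their log2(CPM + 1) values, and the means of the 3 animals per group were fitted with limma 3.58.1 in R 4.3.3 on the 14687 genes whose mean CPM reached 1 in either group, with Benjamini-Hochberg adjustment over all of them and a threshold of 0.05. Means printed in CPM average the CPM of the 2 libraries of an animal first. Intervals are at 95%. limma's F test on the 6 libraries of a group compared its animals, so that these p-values reflect variation between pieces. Isoform ratios were tested by exact two-sided permutation over animals. The fits were also run on simulated reads with the same depth in every library. Those runs therefore do not cover a library as shallow as piece 1 of anomaly animal 1.

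Members and lists were chosen with earlier results of these data known. All members are named, and from each pathway list up to 3 genes with the smallest p and any gene called against most of its list. A gene that this rule names is not reported here. Exon overlap, exon length and coordinates come from GENCODE (GRCm38), and start regions from RefSeq (GRCm38.p6). The alternatives tried were 4 other scalings, 2 filters, 2 pseudocounts, single pieces, block fits, voom on recovered reads and leaving out each animal. Piece numbers follow sample order, so that piece 1 carries letter A in the column headers of anomaly animals and letter B in those of normal animals. By number, the correlation of piece differences between anomaly and normal animals was -0.064 to 0.18 over 9 pairs. By letter the same values change sign (-0.18 to 0.064), so they are not a second check. Such correlations cannot exclude a pairing of the groups in handling, and the main fit used none. Fits by letter were added after seeing the data.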

Additional observations from a re-analysis of the deposited data

Results flagged for a closer look

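Of 66 sets of 6 libraries checked, 1 for each of the 33 genes in each group, 1 held a library far from the rest. Acot13 stood at 6.68 in log2(CPM + 1) in piece 1 of normal animal 3, where the next normal library stood at 6.50, a gap of 0.640 of the whole range and above Dixon's 95% critical value. Chance gives such a gap in about 1 of 20 sets, and anomaly libraries of Acot13 lay far below all normal ones.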

How the results depend on the processing

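Between 23 and 29 members were lower and 2 or 3 higher under the alternatives run. With library totals alone, which moved the median of all genes by 0.88, 23 members were lower and 3 higher, and over all genes 1850 were lower and 8962 higher. Recomputed trimmed means moved that median by -0.42 and left 28 members lower and 2 higher, with 6006 genes lower and 3743 higher over all. Leaving out 1 animal gave 25 to 27 members lower and 2 higher, and over all genes 3591 to 4861 lower and 3593 to 5297 higher. The fits with a replicate block of piece numbers or of piece letters each gave 29 lower and 2 higher, adding Acot2, and changed no other member's call. Over all genes they gave 4748 lower and 5045 higher by number, and 4733 lower and 5049 higher by letter. Letter A pieces alone gave 26 members lower and letter B pieces alone 25, with 2 higher in each. Over all genes, 4188 were lower and 4215 higher by letter A, and 3851 lower and 4199 higher by letter B. Cd36 turned to 1.15 with library totals, 0.00011 with a pseudocount of 4, 0.24 by piece 2 alone, 0.25 by letter B alone, 0.12 with anomaly animal 1 by piece 2 alone and 0.055 in voom, and ranged from -0.49 to 0.73 with 1 animal left out. Acsl4 turned to 1.12 with library totals, 0.030 by piece 1 alone, 0.017 by letter A alone, 0.018 with anomaly animal 1 by piece 2 alone and 0.035 with anomaly animal 2 by piece 1 alone, and ranged from -0.28 to 0.19 with 1 animal left out. Acsl3 and Eci2 turned to 0.18 and 0.47 with library totals. Members called among anomaly animals numbered 1 without piece 1 of anomaly animal 1 (4.82% of all genes) and 13 without piece 2 of anomaly animal 2 (25.3% of all genes), both choices made after seeing the data. The cause of these changes was not tested. The depth of 254404 reads in piece 1 of anomaly animal 1 limits members under 5.56 CPM there, the worth of 3 reads.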
